A study of Danio rerio with 4 samples.

Results

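The mitochondrial ribosomal protein genes were described in 4 RNA libraries of zebrafish (Danio rerio) hearts, 2 from tie1 KO embryos and 2 from tie1 WT embryos. They were taken as the rows of the deposited gene table whose symbol is mrpl or mrps followed by a digit, which gave 74 of 16662 genes, 46 named for the large subunit (mrpl) and 28 named for the small subunit (mrps). All embryos carried the transgene Tg(kdrl:eGFP), which marks endothelium with a green fluorescent protein, and their hearts were taken out with needles 48 hours after fertilisation (48 hpf) and pooled. The product of tie1 is a receptor tyrosine kinase of the endothelium, including the endocardium that lines the heart. The sample labels call the control group WT, while the series design also names heterozygotes, so the WT pools may hold both. No source used here gives the tie1 allele or how many hearts went into a pool. Nothing in the labels says that the 2 pools of a group came from separate clutches, so the spread between them may be technical.

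Mitochondria keep a small genome that encodes a few proteins of the respiratory chain and of ATP synthase, together with both ribosomal RNAs and the transfer RNAs needed to make them. The proteins of the mitochondrial ribosome are all encoded in the nucleus, made in the cytosol and imported, and they assemble with the mitochondrially encoded ribosomal RNAs into a large subunit, which forms peptide bonds, and a small subunit, which reads the messenger RNA. Heart muscle is rich in mitochondria, and in humans inherited defects of several of these proteins affect the heart.

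In the table's own annotation a UniProt name was present for 72 members, and for 71 of these it contained the word mitochondrial. The remaining named member was mrpl58, called immature colon carcinoma transcript 1, an older name of a peptidyl-tRNA hydrolase that is built into the large subunit. Gene Ontology terms were given for 48 members, of which 43 carried ribosome and 42 carried mitochondrion, and all 40 members with a KEGG entry were in the pathway Ribosome. In a newer table of gene names 1 member had another symbol, mrps36, there called kgd4, since the protein is now known as a subunit of the 2-oxoglutarate dehydrogenase complex. Mammalian structures also place the products of mrps30 and mrps18a in the large subunit, although the rule counts these genes as small subunit by name. Another 2 rows are called MRPL49 and MRPS12 in the newer table, but BX248510.1 and si:dkey-17e16.10 in the deposited one, and were therefore no members.

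The values are normalised and rounded by the authors, without a fixed unit, and no correction for transcript length was made, so levels are compared between libraries and not between genes. Between 1770000 and 3240000 reads per library were assigned to genes by estimate, and the median member rested on an estimated 18.5 and 15.0 reads in tie1 KO 1 and 2 and on 29.5 and 25.2 reads in tie1 WT 1 and 2. These read numbers are approximate. In the check of the labels, tie1 had 123 and 88 in the tie1 KO libraries, against 558 and 300 in the tie1 WT libraries (log2 fold change −1.97 ± 0.31 SE, adjusted p = 0.148 in limma). All 8 listed heart muscle markers were found in every library (9 rows, 1 higher and 8 lower), with summed values of 61029 and 39714 in tie1 KO and 80137 and 48538 in tie1 WT hearts. The symbol actc1a has 2 of these rows, at log2 fold changes of −0.585 and −3.26. The second had 2 and 8 in tie1 KO and 54 and 44 in tie1 WT hearts. Markers of most other cells differed more, but those of epidermis differed less (median log2 fold change −0.069, against −0.157 for heart muscle). Of the erythrocyte markers all 7 tested genes had lower values (summed values 4356 and 3992 in tie1 KO, 11214 and 9184 in tie1 WT), and endothelial markers, tie1 among them, in 6 of 7 (3208 and 1930 in tie1 KO, 5138 and 3192 in tie1 WT). Skeletal muscle markers were lower in 6 of 7 tested rows (545 and 689 in tie1 KO, 1279 and 1157 in tie1 WT), and liver and yolk markers were higher in all 5 (716 and 2490 in tie1 KO, 780 and 709 in tie1 WT). Of the skeletal muscle rows 2 are of myhz1.1, at −1.945 and 0.058. Of the neuron markers 3 of 3 tested were higher (339 and 176 in tie1 KO, 259 and 56 in tie1 WT), of epidermis 2 of 5 and of leukocytes 2 of 3, and among the markers with a row only the neuronal gene stmn2a was at 0 in a library. No marker passed the test. The part of these tissue differences in the members' values was not tested, and in pooled hearts fewer cells of a type and less RNA per cell cannot be told apart.

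Summed over all 74 members, the normalised value was nearly the same in the 4 libraries. It was 1892 and 1921 in tie1 KO hearts and 1899 and 1932 in tie1 WT hearts. The means were 1906.5 ± 20.5 in tie1 KO and 1915.5 ± 23.3 in tie1 WT (SD, n = 2 each), at a ratio of 0.995. The groups overlapped, and the difference between the means was smaller than the SD within either group. The large subunit genes summed to 1088 and 1045 in tie1 KO and to 1093 and 1155 in tie1 WT hearts, a ratio of 0.949. The small subunit genes summed to 804 and 876 in tie1 KO and to 806 and 777 in tie1 WT hearts, a ratio of 1.06. For the large subunit both tie1 KO sums lay below both tie1 WT sums, by as little as 5 units between tie1 KO 1 and tie1 WT 1, while for the small subunit the groups overlapped. Of the total without mitochondrially encoded genes, the large subunit took 0.0763% and 0.0734% in tie1 KO and 0.0695% and 0.0790% in tie1 WT. There the large subunit overlapped. The small subunit took 0.0564% and 0.0615% in tie1 KO and 0.05125% and 0.0531% in tie1 WT, without overlap. Which subunit separated the groups thus depended on the denominator. The ratio of the large to the small sum within a library was 1.35 and 1.19 in tie1 KO and 1.36 and 1.49 in tie1 WT hearts, so tie1 KO 1 and tie1 WT 1 were almost alike and the replicates numbered 2 lay apart on either side.

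**Figure D1:**
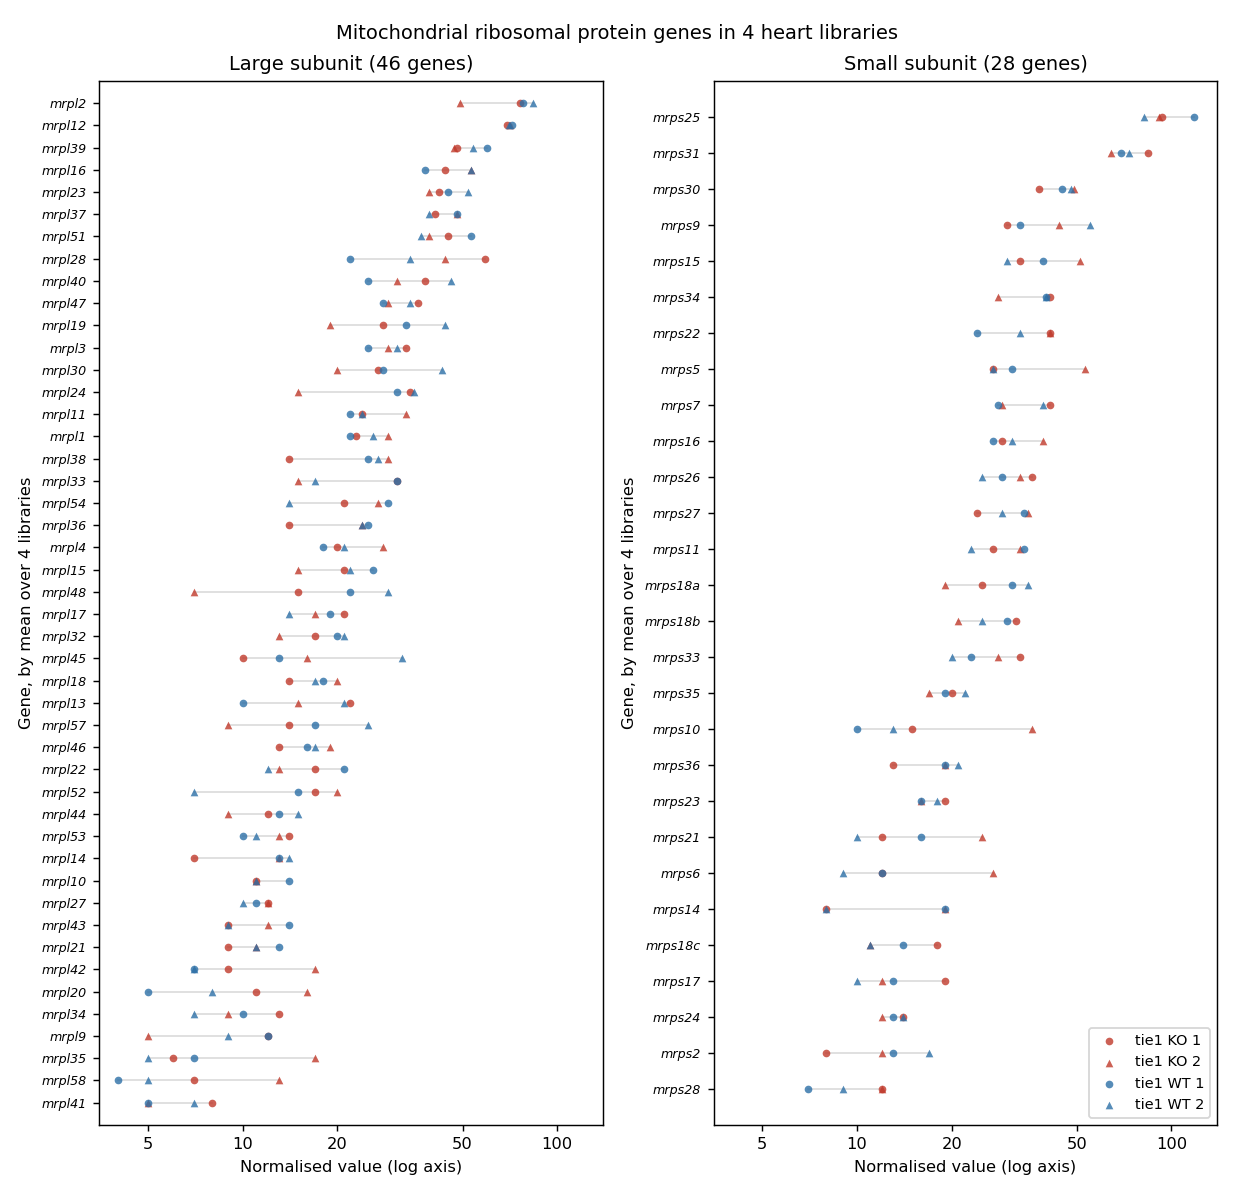
Normalised value (log axis) of each of the 46 large subunit and 28 small subunit genes in the 4 libraries, with circles for replicate 1, triangles for replicate 2, red for tie1 KO and blue for tie1 WT. The grey line joins the lowest and the highest library of a gene, and for most genes red and blue points are mixed along it.

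No member passed the threshold between tie1 KO and tie1 WT hearts. Genes with a mean value of at least 10 were tested with limma on log2(value + 1), with p-values adjusted by the Benjamini-Hochberg method over all 12118 such genes and a threshold of 0.05. This kept 41 of the 46 large subunit genes and all 28 small subunit genes. Past the threshold were 0 of 41 and 0 of 28, against a background of 0.0% of all genes tested. The smallest adjusted p was 0.681 among the large and 0.757 among the small subunit genes. At an unadjusted p under 0.05, 1 large subunit gene was higher (mrpl28) and 1 lower (mrpl48), against 2.61% higher and 4.34% lower among all genes tested. No small subunit gene reached that level in either direction.

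The precision of a single gene was limited. The standard error of a member's log2 fold change had a median of 0.39, and the estimated error from counting reads alone had a median of 0.314. The 95% interval of the median member reached 0.89 to either side on the log2 scale, a fold of 1.85. This interval is not adjusted for multiple testing. With 2 libraries per group the standard error was above the estimated counting error in all 69 members tested. Standard errors from limma are moderated towards the trend over all genes, so this is not a measure of each member's own spread.

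By their medians, the subunits lay close to all genes tested. The median log2 fold change was −0.079 for the large subunit and 0.053 for the small subunit, against −0.0016 for all genes tested, and the large subunit median turned to 0.0099 when libraries were scaled to their totals without mitochondrially encoded genes. Of the large subunit genes tested 17 had a higher and 24 a lower mean log2 value in tie1 KO hearts. Of the small subunit genes 16 were higher, 11 lower and 1 equal. With that scaling 22 large subunit genes were higher and 19 lower, and 19 small subunit genes were higher and 9 lower, while the median of all genes tested moved to 0.087. Without it, among all genes tested 49.6% were higher and 50.2% lower. The middle 50% of all members lay between −0.25 and 0.26, close to that of all genes tested (−0.25 to 0.25). By subunit it ran from −0.40 to 0.18 for the large and from −0.11 to 0.38 for the small subunit. The pooled range thus hides that the subunits lay to opposite sides. Relative to the tie1 WT mean, the large subunit median was −0.054 and −0.028 in tie1 KO 1 and 2, with tie1 WT 1 and 2 at −0.053 and 0.053. The small subunit median was 0.019 and 0.071 in tie1 KO 1 and 2, with tie1 WT 1 and 2 at −0.02 and 0.02. In the large subunit tie1 KO 2 lay within the range of the tie1 WT libraries and tie1 KO 1 just below its lower end, and in the small subunit tie1 KO 2 lay above the range.

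**Figure D2:**
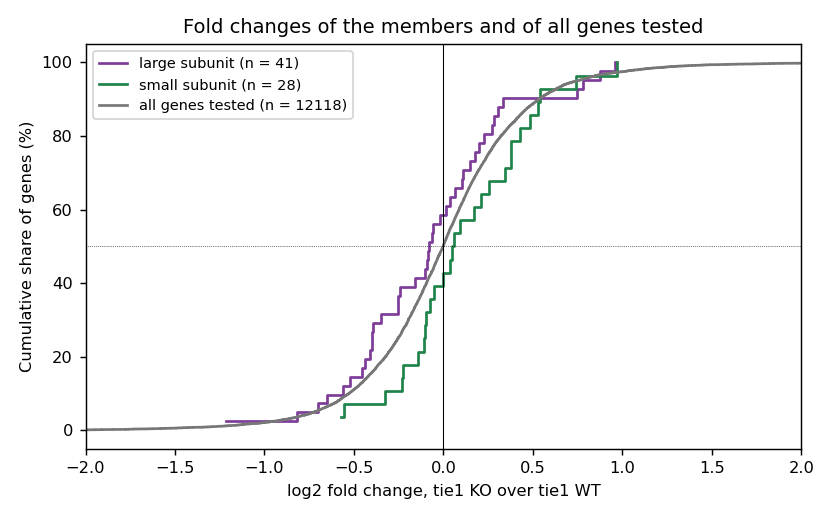
Cumulative share of genes (percent) by log2 fold change of tie1 KO over tie1 WT for 41 large subunit genes, 28 small subunit genes and 12118 genes tested. Over most of the range the large subunit curve runs left of the grey curve of all genes and the small subunit curve right of it. The medians are −0.079, 0.053 and −0.0016 for large subunit, small subunit and all genes tested. Scaling without mitochondrially encoded genes turned the large subunit median to 0.0099 and that of all genes tested to 0.087.

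In most members the groups overlapped. Both tie1 KO values lay above both tie1 WT values in 6 of 41 large and 5 of 28 small subunit genes, and the background was 15.7% of all genes tested. The 6 include mrpl20 and mrpl42 and the 5 include mrps28. The means of these genes are exactly at the filter of 10, reached through their tie1 KO values. Both tie1 KO values lay below both tie1 WT values in 10 of 41 large and 2 of 28 small subunit genes, and the background was 18.3%. For the large subunit these are shares of 14.6% and 24.4%, and for the small subunit 17.9% and 7.14%.

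Among the core of the large subunit, mrpl2, whose bacterial counterpart sits by the peptidyl transferase centre, had 76 and 49 in tie1 KO and 78 and 84 in tie1 WT hearts (log2 fold change −0.40 ± 0.28 SE). The groups did not overlap, but tie1 KO 1 was within 2 units of tie1 WT 1. The gene mrpl28, which has a bacterial counterpart, had 59 and 44 in tie1 KO and 22 and 34 in tie1 WT hearts, a log2 fold change of 0.87 ± 0.33 or a fold of 1.83 (unadjusted p = 0.0273, adjusted p = 0.681 in limma). Both of its tie1 KO values were above both tie1 WT values. It lies at 17128282 to 17138640 of chromosome 15, minus strand (GRCz11). The gene mrpl20, whose bacterial counterpart binds ribosomal RNA early in assembly, had 11 and 16 in tie1 KO and 5 and 8 in tie1 WT hearts, at 0.96 ± 0.57. Its values rest on few reads, and its mean is exactly at the filter of 10.

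Other large subunit genes with bacterial counterparts were lower in tie1 KO hearts without passing the test. The gene mrpl19 had 28 and 19 in tie1 KO and 33 and 44 in tie1 WT hearts, at −0.70 ± 0.34. The gene mrpl30 had 27 and 20 in tie1 KO and 28 and 43 in tie1 WT hearts, at −0.56 ± 0.35. Neither of these overlapped between the groups. By contrast, mrpl16 had 44 and 53 in tie1 KO and 38 and 53 in tie1 WT hearts, with a shared highest value, at 0.10 ± 0.29.

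The stalk of the large subunit recruits translation factors. Its gene mrpl12, the counterpart of bacterial L7/L12, had 69 and 71 in tie1 KO and 72 and 70 in tie1 WT hearts, a log2 fold change of −0.020 ± 0.24 with a 95% interval from −0.56 to 0.52. These 4 values were within 3 units of each other. The gene mrpl12 spans 50054187 to 50066528 of chromosome 3, minus strand (GRCz11). The stalk base genes mrpl10 and mrpl11 stood at −0.16 ± 0.48 and 0.28 ± 0.34, where mrpl10 had 11 in both tie1 KO libraries and 14 and 11 in tie1 WT. For mrpl11 the values were 24 and 33 in tie1 KO and 22 and 24 in tie1 WT hearts, and the groups met at 24.

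The proteins around the exit of the nascent chain include those of mrpl22, mrpl23 and mrpl24, and that of mrpl45 faces the inner membrane. The gene mrpl23 had 42 and 39 in tie1 KO and 45 and 52 in tie1 WT hearts, at −0.25 ± 0.27. The gene mrpl24 had 34 and 15 in tie1 KO and 31 and 35 in tie1 WT hearts, at −0.52 ± 0.41. Here only tie1 KO 2 was low, and without that library the log2 fold change was 0.044. The gene mrpl45 had 10 and 16 in tie1 KO and 13 and 32 in tie1 WT hearts, at −0.65 ± 0.52, with tie1 WT 2 alone high. Without tie1 WT 2 its log2 fold change was −0.034. For mrpl22 it was −0.091 ± 0.45, with 17 and 13 in tie1 KO and 21 and 12 in tie1 WT hearts.

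Among large subunit proteins without a bacterial counterpart, mrpl48 had the lowest fold change of all tested members. It had 15 and 7 in tie1 KO and 22 and 29 in tie1 WT hearts, a log2 fold change of −1.22 ± 0.47 or a fold of 0.431 (unadjusted p = 0.0302, adjusted p = 0.681 in limma). Both tie1 KO values were below both tie1 WT values, and the 95% interval of the fold ran from 0.205 to 0.904. The gene spans 36684000 to 36691681 of chromosome 10, minus strand (GRCz11). Of the same class, mrpl57 had 14 and 9 in tie1 KO and 17 and 25 in tie1 WT hearts, at −0.82 ± 0.45, and mrpl39 had 48 and 47 in tie1 KO and 60 and 54 in tie1 WT hearts, at −0.26 ± 0.26. In the other direction, mrpl52 had 17 and 20 in tie1 KO and 15 and 7 in tie1 WT hearts, at 0.78 ± 0.49. For mrpl42 the values were 9 and 17 in tie1 KO and 7 in both tie1 WT libraries, at 0.75 ± 0.57. Its mean is exactly at the filter of 10, reached through its tie1 KO values. The groups did not overlap in any of these 5 genes, and none passed the test. All of them but mrpl39 were named for a small p in these same data, which favours genes without overlap. Of the 16 tested genes of this class 9 overlapped, 3 had both tie1 KO values above and 4 below. The background was 15.7% above and 18.3% below among all genes tested.

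Divided by ancestry, 25 tested large subunit genes with a bacterial counterpart had a median log2 fold change of −0.085 and 16 without had −0.071. In the small subunit the medians were 0.19 for 16 genes with and −0.086 for 12 genes without a counterpart. The 12 include mrps18b, although its product is a relative of bacterial S18. They also include mrps30 and mrps36, whose products are not placed in the small subunit, and the 16 include mrps18a, placed in the large subunit. The division is therefore approximate. In the small subunit genes with a counterpart, the median relative to the tie1 WT mean was 0.32 in tie1 KO 2 and −0.023 in tie1 KO 1. Summed values of that class were 330 and 434 in tie1 KO and 340 and 341 in tie1 WT hearts, so tie1 KO 2 was high and tie1 KO 1 was the lowest of the 4.

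Among small subunit genes with bacterial counterparts, mrps10 and mrps6 had the highest fold changes. Both also had a high tie1 KO 2, but tie1 KO 1 was not their lowest library. The gene mrps10 had 15 and 36 in tie1 KO and 10 and 13 in tie1 WT hearts, at 0.97 ± 0.50 (adjusted p = 0.757 in limma). Its groups did not overlap, with tie1 KO 2 standing apart. The gene mrps6 had 12 and 27 in tie1 KO and 12 and 9 in tie1 WT hearts, at 0.74 ± 0.51, again with a high tie1 KO 2 and tie1 KO 1 equal to tie1 WT 1. Without tie1 KO 2 the log2 fold changes were 0.37 for mrps10 and 0.19 for mrps6. Next came mrps28, with 12 in both tie1 KO libraries and 7 and 9 in tie1 WT hearts, at 0.54 ± 0.53. Its tie1 KO libraries were equal, and its groups did not overlap. The mean of mrps28 is exactly at the filter of 10, reached through its tie1 KO values. In the other direction mrps2 had 8 and 12 in tie1 KO and 13 and 17 in tie1 WT hearts, at −0.55 ± 0.49. The gene mrps9 had 30 and 44 in tie1 KO and 33 and 55 in tie1 WT hearts, at −0.22 ± 0.35, and mrps15 had 33 and 51 in tie1 KO and 39 and 30 in tie1 WT hearts, at 0.26 ± 0.33. In mrps9 and mrps15 the groups overlapped. The gene mrps7, whose bacterial counterpart organises the head of the subunit, stood at 0.060 ± 0.33.

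Among small subunit genes without a bacterial counterpart, mrps22, in which human mutations cause a mitochondrial disease that can involve the heart, had 41 in both tie1 KO libraries and 24 and 33 in tie1 WT hearts, at 0.53 ± 0.31. Its groups did not overlap, and its 95% interval ran from −0.17 to 1.23. The gene mrps33 had 33 and 28 in tie1 KO and 23 and 20 in tie1 WT hearts, at 0.48 ± 0.33, and mrps26 had 36 and 33 in tie1 KO and 29 and 25 in tie1 WT hearts, at 0.34 ± 0.31. In both genes the tie1 KO values were above the tie1 WT values. The small subunit genes with the largest values had fold changes near 0. For mrps25 the values were 93 and 91 in tie1 KO and 118 and 82 in tie1 WT hearts, at −0.096 ± 0.26, and for mrps31 they were 84 and 64 in tie1 KO and 69 and 73 in tie1 WT hearts, at 0.047 ± 0.25. The gene mrps34 had 41 and 28 in tie1 KO and 40 in both tie1 WT libraries, at −0.23 ± 0.31, where only tie1 KO 2 was low. The gene mrps36 stood at −0.33 ± 0.40, with 13 and 19 in tie1 KO and 19 and 21 in tie1 WT hearts.

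The 3 genes named mrps18 encode relatives of bacterial S18 that occupy different places in the ribosome. The gene mrps18a had 25 and 19 in tie1 KO and 31 and 35 in tie1 WT hearts, at −0.57 ± 0.33, the lowest fold change among the small subunit names. Its product and that of mrps30 belong to the large subunit in mammals, and mrps30 had 38 and 49 in tie1 KO and 45 and 48 in tie1 WT hearts, at −0.10 ± 0.28. The genes mrps18b and mrps18c stood at −0.075 ± 0.35 and 0.17 ± 0.47, with overlapping groups.

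**Figure D3:**
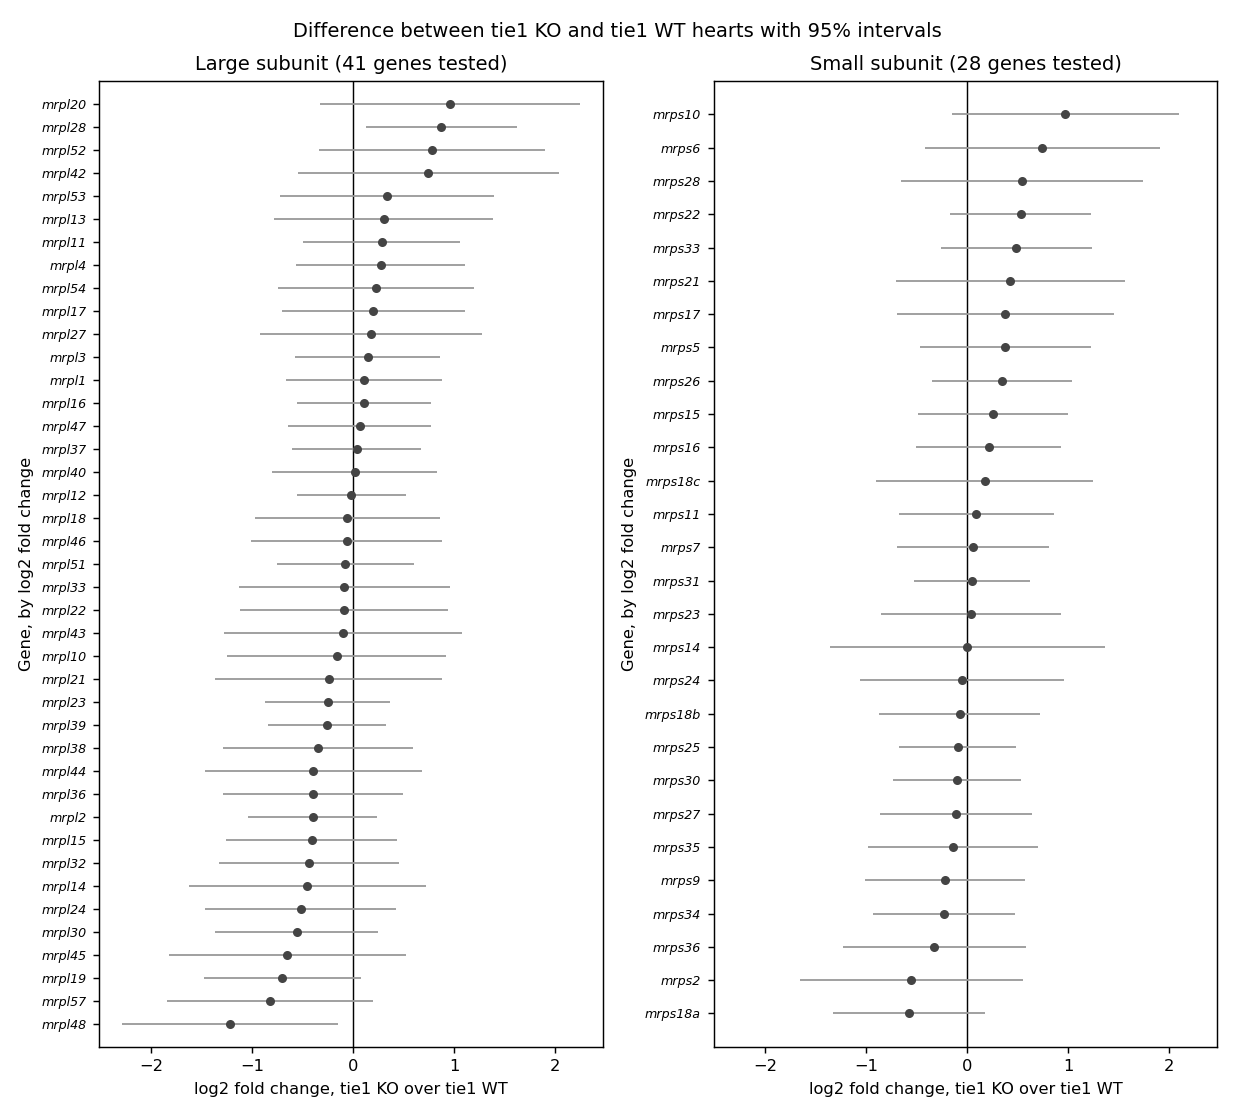
Log2 fold change of tie1 KO over tie1 WT (points) with its 95% interval from limma (lines) for the 41 large and 28 small subunit genes tested, ordered by fold change. The intervals of mrpl28 and mrpl48 lie off 0 before adjustment for multiple testing, and the intervals of all other genes cross 0.

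The 5 members below the filter, all named for the large subunit, were mrpl9, mrpl34, mrpl35, mrpl41 and mrpl58. Their values ranged from 5 to 17 in tie1 KO and from 4 to 12 in tie1 WT hearts. In mrpl58 the values were 7 and 13 in tie1 KO and 4 and 5 in tie1 WT hearts, without overlap. In mrpl35 they were 6 and 17 in tie1 KO and 7 and 5 in tie1 WT hearts, with tie1 KO 2 alone high. The remaining 3 genes overlapped between the groups. For mrpl9 the values were 12 and 5 in tie1 KO and 12 and 9 in tie1 WT, for mrpl34 13 and 9 in tie1 KO and 10 and 7 in tie1 WT, and for mrpl41 8 and 5 in tie1 KO and 5 and 7 in tie1 WT.

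In contrast to the proteins, the 2 mitochondrially encoded ribosomal RNAs with which they assemble had larger values in both tie1 KO libraries. The shorter one (chromosome M, 1020 to 1971, GRCz11) had 164161 and 162864 in tie1 KO and 100651 and 92594 in tie1 WT hearts, a fold of 1.69. The longer one (2043 to 3725) had 986437 and 727419 in tie1 KO and 693690 and 561400 in tie1 WT hearts, a fold of 1.36. Neither overlapped between the groups, and neither passed the test (log2 fold changes 0.76 ± 0.69 and 0.44 ± 1.35, adjusted p = 0.865 and 0.969 in limma). These standard errors are moderated towards the trend over all genes and do not measure the spread between these libraries. The shorter RNA had means of 163500 ± 917 in tie1 KO and 96620 ± 5697 in tie1 WT (SD, n = 2 each). The longer RNA had 856900 ± 183200 in tie1 KO and 627500 ± 93540 in tie1 WT. Together the 2 RNAs took 40.5 ± 4.11% of the library total in tie1 KO and 31.6 ± 1.82% in tie1 WT hearts (SD, n = 2 each). The ratio of their summed value to that of the 74 protein genes was 608 and 463 in tie1 KO and 418 and 339 in tie1 WT hearts.

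All 13 mitochondrially encoded messenger RNAs, which this ribosome translates, also had higher mean log2 values in tie1 KO hearts, with a median log2 fold change of 0.48, against 49.6% higher among all genes tested. In 7 of the 13 both tie1 KO values lay above both tie1 WT values, against 15.7% of all genes tested. None passed the test. The cytochrome oxidase gene mt-co3 had 3717 and 3253 in tie1 KO and 1909 and 2187 in tie1 WT hearts, at 0.77 ± 0.24 (adjusted p = 0.549 in limma). The largest, mt-co1, had 16327 and 13122 in tie1 KO and 8876 and 8044 in tie1 WT hearts, at 0.79 ± 0.32. All 13 transcripts, like both ribosomal RNAs, were higher in tie1 KO 1 than in tie1 KO 2. In tie1 WT hearts 12 of the 13, and both ribosomal RNAs, were higher in tie1 WT 1 than in tie1 WT 2. The 13 transcripts thus moved largely together between libraries, and their counts are not 13 separate results. The members' share of the whole library total was 0.0714% and 0.0812% in tie1 KO against 0.0787% and 0.0897% in tie1 WT hearts. Of the total without mitochondrially encoded genes it was 0.133% and 0.135% in tie1 KO against 0.121% and 0.132% in tie1 WT hearts. The groups overlapped with the whole total as denominator and not without mitochondrially encoded genes. That separation was slight, since tie1 KO 1 (0.1327%) and tie1 WT 2 (0.1321%) were almost equal and only tie1 WT 1 lay apart. The part of the mitochondrial share in the members' values was not tested.

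**Figure D4:**
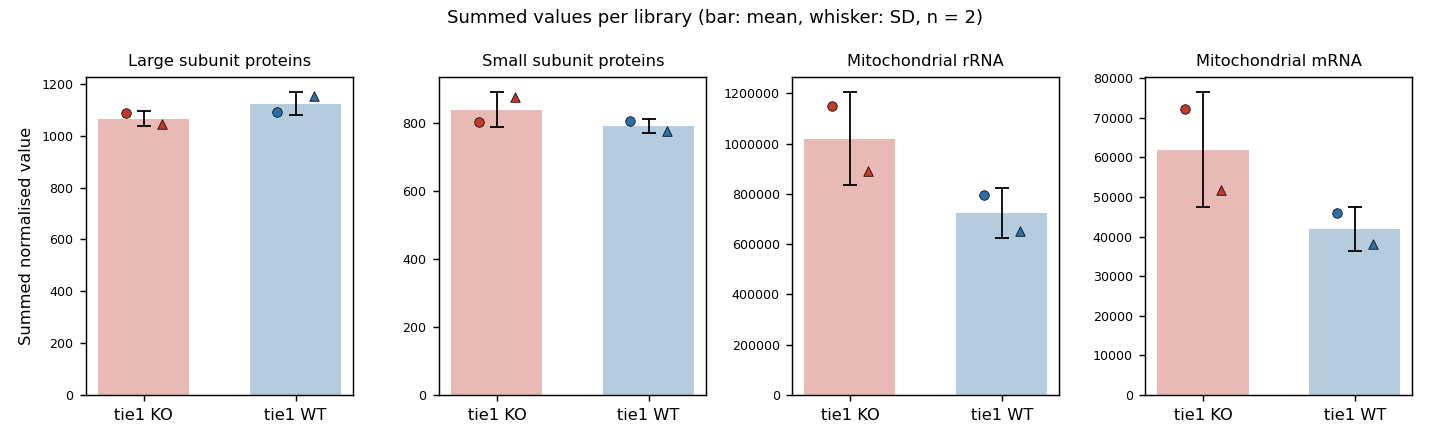
Summed normalised value per library for large subunit genes, small subunit genes, the 2 mitochondrial ribosomal RNAs and the 13 mitochondrial messenger RNAs, in tie1 KO (red) and tie1 WT (blue) hearts. Bars are means and whiskers SD over 2 libraries, circles and triangles are replicates 1 and 2, and the protein sums differ by far less between the groups than the sums of mitochondrially encoded RNA.

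Other nuclear genes of mitochondrial translation were given from lists of known factors, and none of their members passed the test. Mitochondrial ribosomal proteins with other symbols (5 tested of 6 listed) had 1 higher and 4 lower, with a median of −0.051. Among them dap3, the gene of a GTP-binding small subunit protein, had 39 and 32 in tie1 KO and 34 and 37 in tie1 WT hearts, at −0.0054 ± 0.29. The lowest fold change was that of ptcd3, a small subunit pentatricopeptide protein gene, with 67 and 52 in tie1 KO and 76 and 66 in tie1 WT hearts, at −0.26 ± 0.26, and chchd1, aurkaip1 and gadd45gip1 stood at 0.14, −0.051 and −0.14.

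Assembly factors (11 tested of 30 listed) had 6 higher and 5 lower with a median of 0.18. Mitochondrial aminoacyl-tRNA synthetases (9 tested of 21 listed) had 5 higher and 4 lower with 0.063. The other listed genes had no row or were below the filter, so these medians cover only part of each list. The largest of the assembly list, c1qbp, a matrix protein gene, had 127 in both tie1 KO libraries and 166 and 156 in tie1 WT hearts, at −0.34 ± 0.21, and the smallest p there belonged to rpusd4, a pseudouridine synthase gene, at 0.90 ± 0.51. Among the synthetases lars2 had the smallest p, at −0.88 ± 0.53, and kars, which also serves the cytosol, the largest values, at 0.063 ± 0.24.

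Translation factors (17 tested of 29 listed) had 6 higher and 11 lower with a median of −0.12. Factors of mitochondrial transcription and RNA processing (21 tested of 30 listed) had 7 higher and 14 lower with −0.11. These 2 lists share lrpprc and slirp, whose products form a complex that stabilises mitochondrial messenger RNA. The gene lrpprc had 182 and 188 in tie1 KO and 259 and 289 in tie1 WT hearts, at −0.56 ± 0.20 (unadjusted p = 0.0231, adjusted p = 0.673 in limma), without overlap, and slirp stood at −0.15 ± 0.34. The genes of the mitochondrial RNA polymerase polrmt, of its factor tfb2m and of the DNA-packaging protein tfam stood at 0.26 ± 0.29, 0.13 ± 0.31 and −0.031 ± 0.28.

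The members were spread over 22 of the 25 nuclear chromosomes, with 7 on chromosome 19 as the most. Their genes were short, with a median span of 6368 bases against 18120 for the whole table. Of the 74 members 22 (29.7%) had a neighbour in the table in head-to-head orientation, that is, on the opposite strand with the annotated starts at most 1000 bases apart and no overlap. The share over the whole table was 6.3%. It was 15 of 46 in the large and 7 of 28 in the small subunit, and the distance between the starts had a median of 430 bases. In 1 case both neighbours were members, mrps11 and mrpl46 on chromosome 7, with 220 bases between them. Their log2 fold changes were 0.090 and −0.064. Neighbours included other genes of mitochondrial proteins, sdhb at mrpl20, ndufs6 at mrpl36, ndufb5 at mrpl47 and acaa2 at mrpl40. The 18 tested neighbours that were no members had 5 higher and 13 lower, with a median of −0.15, and the 19 tested members with any head-to-head neighbour, mrps11 and mrpl46 included, had 10 higher and 9 lower, with a median of 0.015. The genes mrpl16 and mrpl39 follow each other on the plus strand of chromosome 1 with 336 bases between them, at 0.10 and −0.26.

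The annotated span of 12 members overlapped another gene of the table, in every case on the opposite strand, against 13.6% of all genes with any overlap. The whole of mrpl22 lies within gemin5 and the whole of mrpl9 within prcc. The library kit keeps strand, but no source used here gives the strand setting of the counting. How reads in these overlaps were assigned is therefore not known, and the values of these members and their partners may be affected. The other overlapping members were mrpl4, mrpl11, mrpl27, mrpl32, mrpl33, mrpl38, mrpl39, mrpl43, mrps18c and mrps25.

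The 2 pools of a group were also set against each other. The median absolute log2 difference between tie1 KO 1 and 2 was 0.50 over 28 small and 0.38 over 41 large subunit genes, and that between tie1 WT 1 and 2 was 0.29 and 0.27. Over all genes tested it was 0.32 in tie1 KO and 0.33 in tie1 WT hearts. Over tested genes with means from 10 to 100, a level nearer that of the members, it was 0.36 in tie1 KO and 0.36 in tie1 WT hearts. On the log2(value + 1) scale more than 2-fold apart were 4 members between the tie1 KO libraries (mrps10, mrps6, mrps14 and mrpl24) and 2 between the tie1 WT libraries (mrpl45 and mrps14). The gene mrps14 was at 8 and 19 in tie1 KO and at 19 and 8 in tie1 WT hearts, so its fold change of 1 came from opposite splits in the groups. Shares over 2-fold among the members were 5.8% in tie1 KO and 2.9% in tie1 WT hearts, against 10.3% in tie1 KO and 8.2% in tie1 WT hearts of tested genes with means from 10 to 100. By subunit they were 10.7% (3 of 28) of small and 2.44% (1 of 41) of large subunit genes in tie1 KO, and 3.57% of small and 2.44% of large subunit genes in tie1 WT hearts. The difference between the subunits was not tested.

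**Figure D5:**
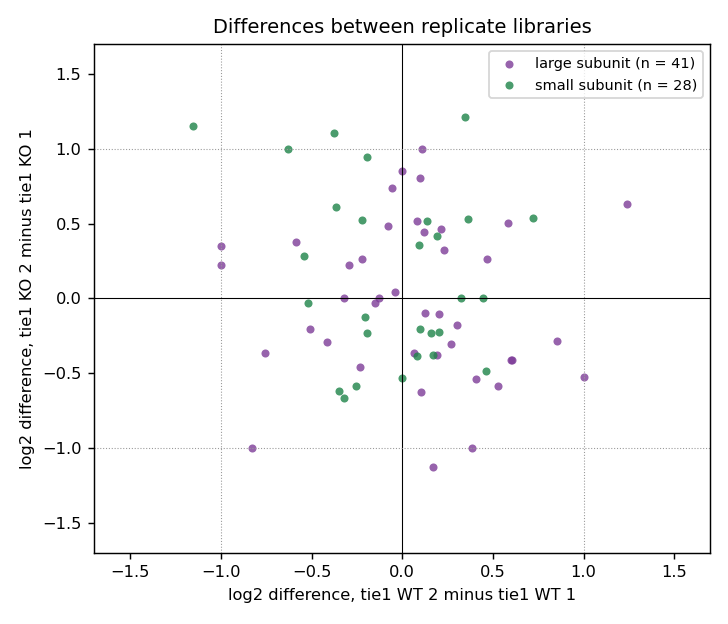
Log2 difference between tie1 KO 2 and tie1 KO 1 (vertical) against that between tie1 WT 2 and tie1 WT 1 (horizontal) for 41 large (purple) and 28 small (green) subunit genes, with dotted lines at 2-fold. Most points lie within the dotted lines, and 4 members lie beyond them between the tie1 KO and 2 between the tie1 WT libraries.

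The mean centred log2 value of the 69 tested members was −0.026 and 0.027 in tie1 KO 1 and 2 and −0.0064 and 0.0053 in tie1 WT 1 and 2. The 5 other genes nearest to this flat profile, by Euclidean distance over the 4 libraries, were CR753886.1, tbl1xr1a, si:ch211-212k18.4, fam193b and sncaip, at distances from 0.0188 to 0.0395. The gene fam193b, for example, had 87 in each of the 4 libraries. Since the profile hardly varies, the likeness says only that these genes hardly varied either.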

How the data were processed

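Build GRCz11 (danRer11), the aligner STAR 2.4.0a, the counter featureCounts 1.4.5-p1 of Subread, and FastQC are listed in the submitters' processing notes. RNA went into a stranded total RNA kit, per the labels' protocols. The authors deposited 1 normalised, rounded gene table, whose values are handled here as a score, since no source used here gives the normalization method. Median-of-ratios factors of the deposited values were 0.9994 and 1.001 in tie1 KO 1 and 2 and 0.9995 and 1 in tie1 WT 1 and 2. The values were thus already level by that measure, and the alternative setting that uses it hardly changed them. The spacing of low values gave estimated reads per unit of 0.904 and 0.749 for tie1 KO 1 and 2 and of 1.34 and 1.15 for tie1 WT 1 and 2. The spacing pattern correlated with the fitted one at 0.589 and 0.841 in tie1 KO 1 and 2 and at 0.869 and 0.655 in tie1 WT 1 and 2. Read numbers and counting errors are therefore approximate, most of all in tie1 KO 1 and tie1 WT 2. Above 1, rounding merges neighbouring read numbers, so no count test was used. Estimates of counting error cover neither duplicates nor losses before sequencing.

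Genes with a mean of at least 10 were fitted as log2(value + 1) with limma 3.58.1 in R 4.3.3 (mean-variance trend, Benjamini-Hochberg adjustment), a scale that understates changes of low genes. The fit was also run on simulated normal log2 values drawn with its own variance trend. That checks the code and not how well the model suits rounded values from few reads. Every adjusted p is from this fit. Log2 fold changes carry their standard error. For single sums no test was run, as the smallest two-sided p of an exact permutation test would be 0.333.

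Members and lists were chosen with earlier results of these data known. Named genes were, per subunit, the 5 with the largest mean, the 5 with the smallest p in each direction, genes fixed by name for their role, and members below the filter. Neighbouring genes, mrps14, mrps28 and BX248510.1 were named after their values were seen. For related lists they were the gene with the largest mean, the one with the smallest p, and fixed names. The mitochondrial ribosomal RNAs were taken by biotype. Since nothing says that pools of a group are separate clutches, p-values measure only the spread between pools. In limma that spread is moderated towards the trend over all genes. Sequences were not used here.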

Additional observations from a re-analysis of the deposited data

How the results depend on the processing

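In each of 15 alternative settings (pseudocounts of 0.5 and 10, no filter or a mean of at least 50, TMM, median-of-ratios, quantile and mitochondria-free scaling, robust or trendless limma, the replicate block, and each library left out in turn) 0 large and 0 small subunit genes passed the threshold. The smallest adjusted p of a member over these fits was 0.333. The median log2 fold change moved beyond the spread between libraries in few of them, and the robust, trendless and block fits could not move it. Restricted to means of at least 50, it was −0.26 for 3 large and −0.025 for 2 small subunit genes. With totals taken without mitochondrially encoded genes it was 0.0099 for the large subunit, with 22 higher and 19 lower, and 0.14 for the small subunit, with 19 higher and 9 lower. That scaling put the median of all genes tested at 0.087. The sign of the large subunit median thus depends on the scaling. The large subunit median lay below that of all genes tested both with this scaling and without it (−0.079 against −0.0016 without). Such scaling divides each library by a constant and moves all genes nearly alike, so it could hardly change this order. With 1 library left out, where a lone library is assumed to vary like the others, the median ran from −0.11 to −0.039 for the large and from 0.0032 (without tie1 KO 2) to 0.14 (without tie1 WT 1) for the small subunit. With no filter, the large subunit median over all 46 genes was −0.062. Among the log2 fold changes of the 35 named members tested, 21 of the values under alternatives changed sign and 467 kept their direction or reached 0. The 467 include values that could not change. The filters, the robust and trendless fits and the replicate block leave a gene's log2 fold change as it was. The sign changes came with 1 library left out, where the log2 fold change ran from −1.09 to 0.044 for mrpl24, −0.041 to 1.0e-04 for mrpl12, −0.13 to 0.34 for mrpl16, −0.47 to 0.29 for mrpl22, −0.051 to 0.56 for mrps15, −0.37 to 0.22 for mrps18b, −0.16 to 0.50 for mrps18c, −0.36 to 0.16 for mrps25, −0.28 to 0.075 for mrps30, −0.15 to 0.24 for mrps31, −0.50 to 0.035 for mrps34, −0.18 to 0.30 for mrps7 and −0.58 to 0.14 for mrps9. Quantile normalization gave 0.0061 for mrpl12, and mitochondria-free scaling gave 0.069 for mrpl12 and 0.012 for mrps18b. The cause was not tested.

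The replicate number is shared by the groups' labels, but nothing says that it marks a clutch or day. Deviations of the libraries numbered 1 correlated at 0.198 over all genes tested and at −0.132 over the members. With the replicate block 95 genes of all tested passed the threshold, against 0 without it, and 0 members passed in either subunit. The medians stayed at −0.079 and 0.053, which the block cannot change. Other counts over all genes were 13 with a mean of at least 50, 16 with the robust setting, 8 with TMM and 4 with mitochondria-free scaling. The depth limits precision, as does n = 2 per group: the counting error at the median member was an estimated 23.2% and 25.8% in tie1 KO 1 and 2 and 18.4% and 19.9% in tie1 WT 1 and 2.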

Other observations

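The row that the newer name table calls MRPS12, a gene whose bacterial counterpart helps to check codons in the decoding centre, had 20 and 23 in tie1 KO and 13 and 32 in tie1 WT hearts, at 0.063 ± 0.46. The row called MRPL49 had 11 and 4 in tie1 KO and 5 in both tie1 WT libraries, below the filter.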
